A study of Homo sapiens with 24 samples.

Results

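The primary granule proteins of myeloid cells are described here through 10 genes, MPO, ELANE, PRTN3, AZU1, CTSG, LYZ, RNASE2, RNASE3, SERPINB1 and SRGN. A gene was measured by every probe set that the annotation of the array assigns to it alone. This gave 16 probe sets for 9 of the 10 genes, out of 54613 probe sets and 19775 genes in all. No probe set is assigned to RNASE3 alone, so it has no value here. The main probe set of a gene is the one with the highest mean log2 signal over the 24 arrays, and 4 genes, MPO, LYZ, SERPINB1 and SRGN, have 7 further ones.

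Primary, or azurophil, granules are formed at the promyelocyte stage of granulocyte development, before the specific and the gelatinase granules. They carry myeloperoxidase, a family of serine proteases and antimicrobial proteins, packed on a proteoglycan core, and they are also made by immature monocytic cells. Transcription factors of the PU.1, C/EBP, MYB and RUNX families are known to act on these genes, most of which fall in expression as myeloid cells mature.

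RNA was measured in MV4-11 and MOLM-14, 2 human acute myeloid leukemia lines of the M5 (monocytic) type with an internal tandem duplication of FLT3. MV4-11 has the mutated FLT3 allele only, while MOLM-14 carries a wild-type allele besides. Each line was given DMSO, 3 nM ABT-869, 6 µM SAHA or both drugs (the combination) for 24 hours. ABT-869 is an inhibitor of several receptor tyrosine kinases, FLT3 among them, and SAHA of histone deacetylases. The methods do not say again which doses made up the combination. The 8 groups hold 3 arrays each, stated to be biological triplicates, and each line is a single cell line. The signals are linear, with a 2% trimmed mean of 500.06 to 500.069 on every array, and a difference below is in log2 signal with its standard error (SE) from limma. A change was called at an adjusted p under 0.05, adjusted by Benjamini-Hochberg over all 54613 probe sets. Groups whose arrays did not overlap are described as such. This is not a call, since an exact rank test of 3 arrays against 3 can give no p under 0.1. Levels of different probe sets are not set against each other. In these bulk samples, fewer cells of a type and less RNA per cell cannot be told apart.

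The median signal of an array was 61.3 to 99.6, and arrays of 1 group correlated at 0.9149 or more. Deviation from the group mean (SD, log2 scale) was over 0.3 on 5 arrays, 3 of MV4-11 (ABT-869 replicate 2 and combination replicates 2 and 3) and 2 of MOLM-14 (replicate 3 of the DMSO group and replicate 1 of the combination). Calls of the members that were lost without them are given below. Of 8 myeloid and monocytic markers measured, CD4 had DMSO means of 5119.6 in MV4-11 and 3296.7 in MOLM-14, CSF3R 1744.2 and 1204.7, and ITGAM 1261.7 and 1076.3. The others were lower, with KIT at 159.4 and 253.6, CD34 at 121.5 and 94.1 and FCGR1A at 58.2 and 39.6. ANPEP (17.1 and 24.6) and CD14 (7.9 and 19.4) were lowest. The sum of the list was 8158.7 to 8805.6 in MV4-11 and 5830.9 to 6291.1 in MOLM-14 with DMSO. CD33 and LILRB4 were not matched. The lymphoid sum was 1928.1 to 2059.9 and 1684.6 to 1758.8, most of it from NKG7, which had DMSO means of 1200.5 and 1201.2. The erythroid and platelet sum was 449.1 to 544.0 and 357.0 to 483.0. No lymphoid, erythroid or platelet marker measured was called for a treatment. Centring each array on its median moved the median of all probe sets by over 0.1 in several comparisons, by −0.12 for ABT-869 in MV4-11, 0.25 for SAHA in MOLM-14 and 0.26 for the lines with DMSO.

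**Figure D1:**
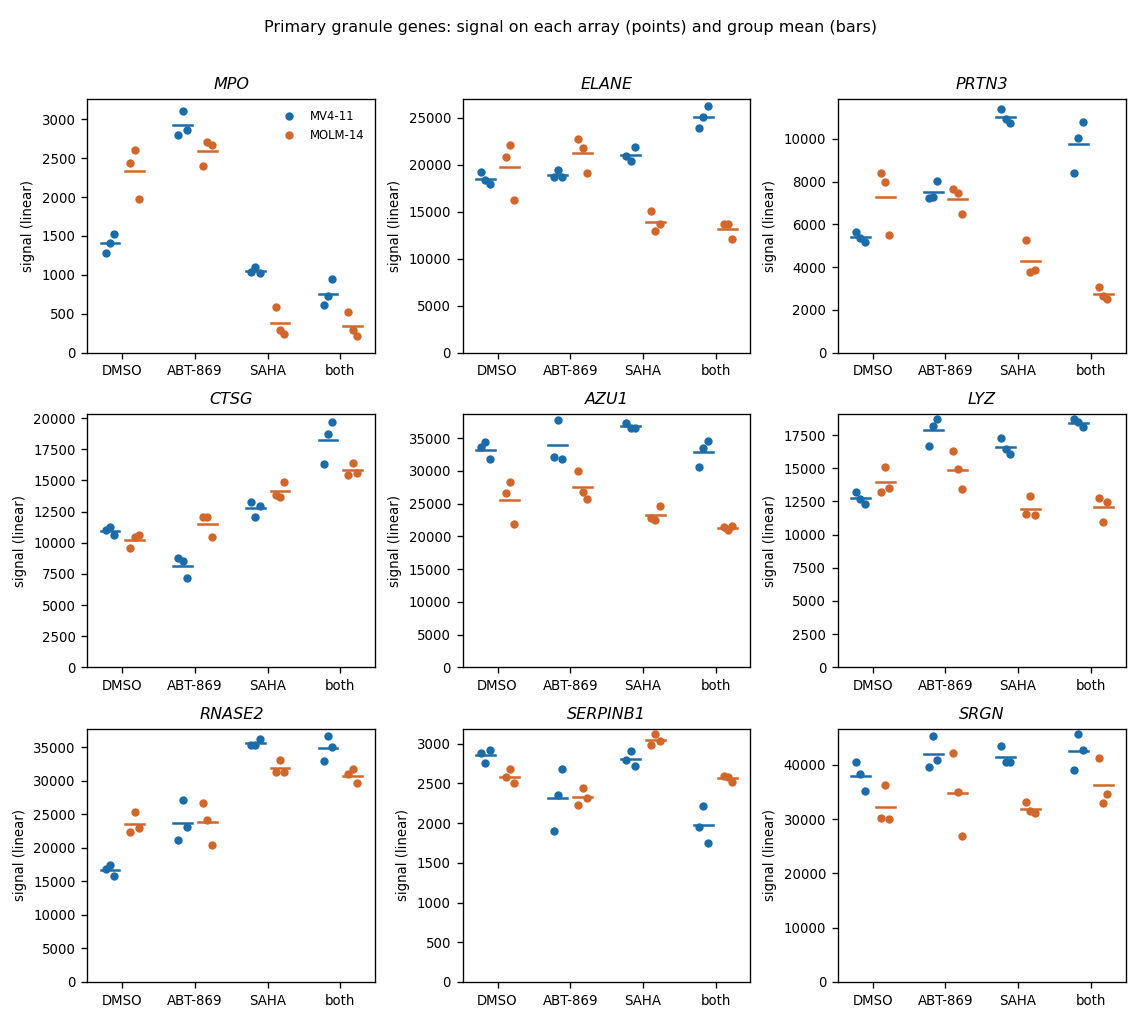
Signal (linear, vertical axis from 0) of the main probe set of each of the 9 measured genes on every array, by treatment, with MV4-11 in blue and MOLM-14 in orange. Points are arrays, bars are means of 3 arrays and "both" is the combination. MPO fell in MOLM-14 with SAHA and with the combination, to between 210.6 and 593.7, and PRTN3 rose in MV4-11 and was lower in MOLM-14.

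MPO encodes myeloperoxidase, the heme enzyme that makes hypochlorous acid and the usual marker of the myeloid lineage. It was the member that moved farthest. With the single drugs, a rise was called for ABT-869 in MV4-11 only, and a fall for SAHA in MOLM-14 only. In neither line were both called, and the rise was lost under 6 of 10 alternative settings. In MV4-11 its main probe set, 203949_at, gave 1279, 1409 and 1522 with DMSO and 2800.4, 3109 and 2863 with ABT-869. It gave 1033, 1102 and 1019 with SAHA, and 613.2, 722.6 and 946.3 with the combination. All 3 ABT-869 arrays thus lay above, and all SAHA and combination arrays below, every DMSO array, with the combination the lowest. In MOLM-14 the signals were 2431, 2607 and 1971 with DMSO and 2400.4, 2709 and 2666 with ABT-869. They were 593.7, 289.2 and 246.3 with SAHA and 519.6, 291.8 and 210.6 with the combination. The SAHA and combination arrays overlapped each other and lay far below DMSO, while the ABT-869 arrays overlapped DMSO.

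In MV4-11, MPO rose with ABT-869 by 1.06 (SE 0.164, adjusted p = 0.0263), a 2.09-fold change. That call was lost when any 1 of the DMSO or ABT-869 arrays, or SAHA replicate 1 or 2, was left out (adjusted p 0.0514 to 0.0967), without the 5 arrays that stood apart (1.02, adjusted p = 0.0591), and with the arrays centred (0.94, adjusted p = 0.0960). The call was also lost with the replicate number as a block, with only the groups compared and in 1 fit over all 24 arrays. With SAHA the MPO difference was −0.41 (adjusted p = 0.256), which did not pass. With the combination MPO fell by 0.90 (SE 0.164, adjusted p = 0.0101), and relative to ABT-869 alone it fell by 1.96 (adjusted p = 0.00102), a 3.90-fold drop. In MOLM-14, where ABT-869 gave 0.16 (adjusted p = 0.951), SAHA lowered MPO 6.66-fold (−2.74, SE 0.379, adjusted p = 0.00836). The combination lowered it 7.31-fold (−2.87, SE 0.379, adjusted p = 0.00544), and 8.16-fold relative to ABT-869 alone (−3.03, adjusted p = 0.00271). These falls were called whichever array was left out. In 1 fit over all 24 arrays the fall with the combination in MV4-11 was not called (adjusted p = 0.0506). With only the 6 arrays of the groups compared, the fall relative to ABT-869 in MOLM-14 was called and the other 4 were not (adjusted p 0.0878 to 0.127). A further probe set of MPO, 203948_s_at, gave 0.94 with ABT-869 in MV4-11 (adjusted p = 0.0545), and fell by 1.91 with SAHA (adjusted p = 0.0145) and by 2.03 with the combination (adjusted p = 0.00922) in MOLM-14.

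ELANE, PRTN3 and CTSG encode the active serine proteases neutrophil elastase, proteinase 3 and cathepsin G, and AZU1 encodes azurocidin, a relative of them that has lost protease activity and kills bacteria. AZU1, PRTN3 and ELANE are neighbours on chromosome 19 with 0 other coding genes between them, and CTSG lies on chromosome 14. The windows from 250 bases before to 50 bases after the start are shown for PRTN3 (chr19:840749-841048, plus strand), AZU1 (chr19:827587-827886, plus strand) and CTSG (chr14:24576201-24576500, minus strand). These 3 genes were picked because their called changes were not the same. Their responses were not tested against each other. The windows are from RefSeq on GRCh38.p14 and are printed 5′ to 3′ on the strand of the gene. The set of windows used here holds 6 of the 10 genes. Capitals mark matches, on either strand, to GAGGAA (PU.1), TTGCNNAA (C/EBP) or AACGG (MYB). MPO, ELANE, LYZ and SRGN have no entry in that set.
PRTN3: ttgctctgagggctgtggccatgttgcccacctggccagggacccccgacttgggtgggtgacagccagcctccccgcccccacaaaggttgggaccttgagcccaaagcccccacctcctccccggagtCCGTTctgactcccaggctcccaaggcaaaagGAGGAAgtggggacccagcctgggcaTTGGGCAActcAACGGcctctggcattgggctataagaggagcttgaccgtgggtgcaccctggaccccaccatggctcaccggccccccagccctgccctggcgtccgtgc
AZU1: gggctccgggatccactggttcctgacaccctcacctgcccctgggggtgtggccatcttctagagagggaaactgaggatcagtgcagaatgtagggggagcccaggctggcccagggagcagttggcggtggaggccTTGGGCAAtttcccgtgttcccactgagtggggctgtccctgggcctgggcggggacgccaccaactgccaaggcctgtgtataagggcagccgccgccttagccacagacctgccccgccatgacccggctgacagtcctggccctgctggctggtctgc
CTSG: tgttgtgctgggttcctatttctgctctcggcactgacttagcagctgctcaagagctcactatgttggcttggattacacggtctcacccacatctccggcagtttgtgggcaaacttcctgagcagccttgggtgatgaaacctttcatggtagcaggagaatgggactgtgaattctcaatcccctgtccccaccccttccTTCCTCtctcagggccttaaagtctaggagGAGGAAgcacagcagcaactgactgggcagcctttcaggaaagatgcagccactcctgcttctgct
The PRTN3 window held 1 GAGGAA, 1 TTGCNNAA and 2 AACGG matches, the AZU1 window 1 TTGCNNAA and the CTSG window 2 GAGGAA. No match overlapped another, and TGTGGT (RUNX) was in none of the 6. Of 35116 windows of the same length, 27.853% held GAGGAA, 10.46% TTGCNNAA, 19.698% AACGG and 13.074% TGTGGT, so such matches are common, and a match is a description and not a binding site.

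PRTN3 rose in MV4-11 with SAHA and the combination, and fell in MOLM-14 with the combination. In MV4-11 the signals were 5655, 5363 and 5170.2 with DMSO and 7229, 7298 and 8042 with ABT-869. SAHA gave 11396, 10929 and 10717, and the combination 8424, 10023 and 10765. Every treated array was above every DMSO array, and SAHA and combination arrays overlapped. In MOLM-14, DMSO gave 8414, 7972 and 5496 and ABT-869 gave 7643, 7468 and 6464. With SAHA the arrays read 5271, 3755 and 3856, and with the combination 3075, 2666 and 2489. All combination arrays there were below all SAHA arrays, and those below all DMSO arrays.

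In MV4-11, PRTN3 rose with SAHA by 1.03 (SE 0.125, adjusted p = 0.00503), or 2.04-fold, and with the combination by 0.85 (SE 0.125, adjusted p = 0.00404). Without the 5 arrays that stood apart the second value was 0.64 (adjusted p = 0.0987). The ABT-869 difference was 0.48 (adjusted p = 0.141). In MOLM-14 the combination lowered PRTN3 2.62-fold (−1.39, SE 0.200, adjusted p = 0.00674), with the same size relative to ABT-869 (−1.39, adjusted p = 0.00430). SAHA alone gave −0.76 (adjusted p = 0.0630), which passed without DMSO replicate 3, the lowest DMSO array (−0.95, adjusted p = 0.0297).

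With SAHA and with the combination, ELANE moved from DMSO in the same directions as PRTN3 but by less. In MV4-11 it gave 19241, 18405 and 17953 with DMSO, and 18653, 19434 and 18694 with ABT-869. It gave 20957, 20377 and 21890.5 with SAHA, and 23882, 25085 and 26260.4 with the combination. Only ABT-869 overlapped DMSO there, and the combination was above SAHA on every array. In MOLM-14 the signals were 20831, 22139.7 and 16255 with DMSO and 22803, 21775 and 19138 with ABT-869. They were 15097, 12989.6 and 13691 with SAHA and 13706, 13707 and 12129 with the combination, all below the lowest DMSO array. In MV4-11 ELANE rose with the combination by 0.44 (SE 0.103, adjusted p = 0.0304). This call was lost without any 1 of the DMSO or combination arrays, or SAHA replicate 1 or 2 (adjusted p 0.0512 to 0.0965), and without the 5 arrays that stood apart (0.37, adjusted p = 0.250). In MOLM-14 the difference was −0.49 with SAHA (adjusted p = 0.0877) and −0.57 with the combination (adjusted p = 0.0524), both of which passed without DMSO replicate 3 (adjusted p = 0.0415 and 0.0237). Relative to ABT-869, the combination lowered ELANE (−0.69, SE 0.145, adjusted p = 0.0215), a call lost without ABT-869 replicate 1 or 2 or any combination array (adjusted p 0.0509 to 0.0758).

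CTSG was the protease that rose in both lines. In MV4-11 it gave 11016, 11270.1 and 10586 with DMSO and 8789, 8494 and 7191 with ABT-869. SAHA gave 13232, 12101 and 12954, and the combination 16287, 18727 and 19704. These 4 groups did not overlap, in the order ABT-869, DMSO, SAHA, combination. In MOLM-14 the signals were 9568, 10424 and 10588 with DMSO, and 12067, 12054 and 10459.9 with ABT-869. They were 13858, 13706 and 14857 with SAHA, and 15437, 16397 and 15572 with the combination. DMSO and ABT-869 overlapped, and the combination was the highest group in MOLM-14 as well.

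With the combination, CTSG rose by 0.73 in MV4-11 (SE 0.127, adjusted p = 0.00834) and by 0.63 in MOLM-14 (SE 0.106, adjusted p = 0.0108). Without the 5 arrays that stood apart, the MV4-11 value was 0.57 (adjusted p = 0.158). Relative to ABT-869 alone it rose 2.24-fold in MV4-11 (1.16, adjusted p = 0.00304), also lost without those arrays (1.03, adjusted p = 0.121). In MOLM-14 the same comparison gave 0.46 (adjusted p = 0.0304), lost without any 1 ABT-869 or combination array (adjusted p 0.0580 to 0.0993) and without the arrays that stood apart (0.47, adjusted p = 0.0837). SAHA alone raised CTSG by 0.47 in MOLM-14 (SE 0.106, adjusted p = 0.0357), a call that held only without ABT-869 replicate 1 or 3 (adjusted p 0.0509 to 0.122 without each of the other 10 arrays). Without the 5 arrays that stood apart it was 0.50 (adjusted p = 0.0802). SAHA gave 0.22 in MV4-11 (adjusted p = 0.460). ABT-869 alone gave −0.43 in MV4-11 (adjusted p = 0.184) and 0.18 in MOLM-14 (adjusted p = 0.765).

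AZU1 passed the test with no treatment in either line. Its signals in MV4-11 were 33608, 34349 and 31828 with DMSO, and over all treated arrays they were 30588 to 37846. In MOLM-14 they were 26596, 28234 and 21945 with DMSO and 20903 to 30044 over all treated arrays. With SAHA in MV4-11 every array (36538.6 to 37249.3) was above DMSO. With the combination in MOLM-14 every array (20903.1 to 21592.7) was below it. The other treated groups overlapped DMSO. The largest difference from DMSO was −0.26 with the combination in MOLM-14 (95% interval −0.53 to 0.02, adjusted p = 0.316), although the next gene along the chromosome, PRTN3, was called there.

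**Figure D2:**
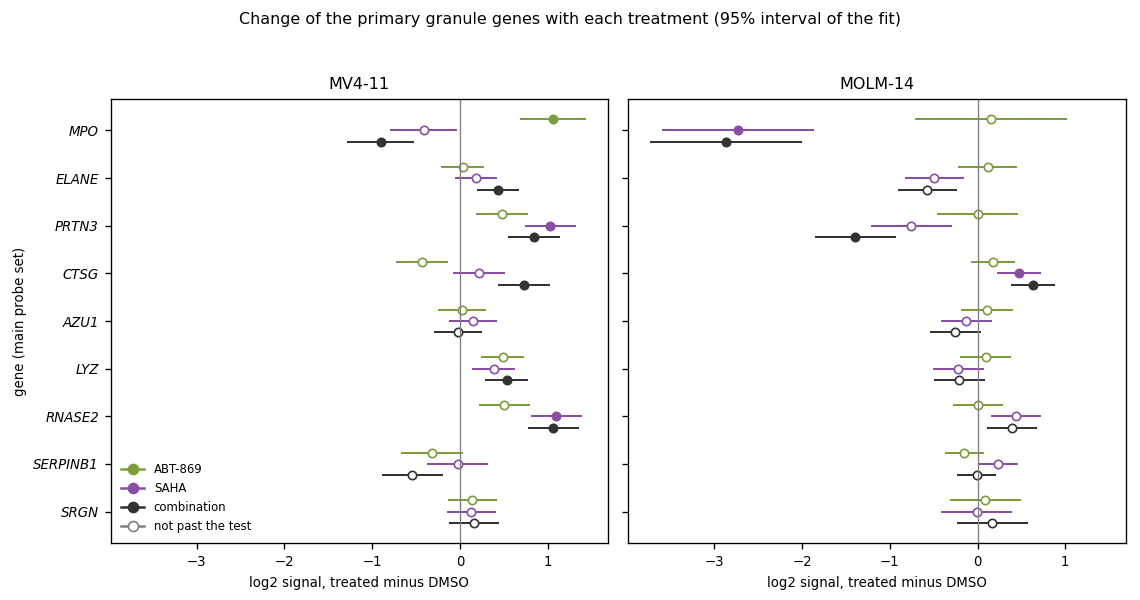
Difference of log2 signal from DMSO (horizontal axis) for each gene and treatment, with MV4-11 on the left and MOLM-14 on the right. Lines are 95% intervals from limma and filled points have an adjusted p under 0.05. MPO with the combination was −0.90 in MV4-11 and −2.87 in MOLM-14, PRTN3 was 0.85 and −1.39, and CTSG was 0.73 and 0.63.

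LYZ encodes lysozyme, which cleaves bacterial cell walls and is stored in several kinds of granule and secreted by monocytes. Its main probe set, 213975_s_at, gave 13245, 12655 and 12300.5 with DMSO in MV4-11 and 16669, 18193 and 18698 with ABT-869. With SAHA it gave 17311, 16480.2 and 16075 and with the combination 18691, 18464 and 18109.8, so that every treated array was above DMSO. In MOLM-14, DMSO gave 13208, 15095 and 13492, ABT-869 16336, 14941 and 13398, SAHA 11527, 12893 and 11449, and the combination 12794, 10939 and 12459. The SAHA and combination arrays were below every DMSO array there. LYZ rose in MV4-11 with the combination by 0.53 (SE 0.105, adjusted p = 0.0140), a call lost without DMSO replicate 2 or 3 (adjusted p 0.0530 to 0.0531) and without the 5 arrays that stood apart (adjusted p = 0.132). It gave 0.49 with ABT-869 (adjusted p = 0.0787) and 0.38 with SAHA (adjusted p = 0.10). No MOLM-14 difference passed (−0.22 with SAHA, adjusted p = 0.361, and −0.21 with the combination, adjusted p = 0.431). A further LYZ probe set, 1555745_a_at, rose in MV4-11 with SAHA by 1.04 (adjusted p = 0.0309) and with the combination by 0.94 (adjusted p = 0.0203), against 0.38 and 0.53 at the main one, and gave −0.01 and −0.15 in MOLM-14.

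RNASE2 and RNASE3 encode the eosinophil-derived neurotoxin and the eosinophil cationic protein, ribonucleases that are best known from eosinophils. RNASE2 rose 2.14-fold in MV4-11 with SAHA. The MV4-11 arrays gave 16784, 17496 and 15823 with DMSO and 21162, 27154 and 23056 with ABT-869. They gave 35391, 35409 and 36318 with SAHA and 32908, 36756 and 35093 with the combination. Each treatment was above DMSO on every array, with SAHA and the combination overlapping above ABT-869. In MOLM-14 the signals were 22308, 25339 and 22982 with DMSO and 26770.4, 24168 and 20475 with ABT-869. They were 31349, 33106 and 31349 with SAHA, and 30979.5, 31708 and 29714 with the combination, again above every DMSO array. In MV4-11 RNASE2 rose by 1.10 with SAHA (SE 0.124, adjusted p = 0.00383), by 1.06 with the combination (SE 0.124, adjusted p = 0.00147) and by 0.56 with the combination relative to ABT-869 (adjusted p = 0.0427). The last call was kept only without ABT-869 replicate 2 (adjusted p 0.0660 to 0.128 without each of the other 11 arrays), and it was lost without the 5 arrays that stood apart (0.58, adjusted p = 0.237). ABT-869 alone gave 0.50 (adjusted p = 0.119). In MOLM-14 the SAHA and combination differences were 0.44 (adjusted p = 0.0715) and 0.39 (adjusted p = 0.107). With quantile normalization these were 0.63 (adjusted p = 0.0107) and 0.44 (adjusted p = 0.0292).

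The window around the RNASE2 start (RefSeq, GRCh38.p14, chr14:20955237-20955536, plus strand) is shown because RNASE2 is the member that rose most with SAHA in MV4-11. RNASE3, for which there is no measurement, has nearly the same bases where the windows align. Capitals mark TTGCNNAA and AACGG matches on either strand.
RNASE2: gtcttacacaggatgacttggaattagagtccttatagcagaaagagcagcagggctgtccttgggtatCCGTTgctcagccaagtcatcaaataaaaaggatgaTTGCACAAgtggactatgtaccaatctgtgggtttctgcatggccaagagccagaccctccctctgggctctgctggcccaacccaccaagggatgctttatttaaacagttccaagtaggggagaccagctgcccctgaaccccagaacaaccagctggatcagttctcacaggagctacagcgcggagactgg
Where this window aligned with that of RNASE3 (chr14:20891135-20891434, plus strand), 243 of 249 bases were identical (97.59%). Bases in gaps and at unaligned ends were not counted. Each window held 1 TTGCNNAA and 1 AACGG match. The TTGCNNAA match began at −145 from the start in RNASE2 and at −94 in RNASE3. Of the eosinophil and basophil markers, 8 of 10 were measured. With DMSO, EPX, the eosinophil peroxidase, was at a mean of 129.4 in MV4-11 and 101.1 in MOLM-14, and PRG2, the major basic protein, at 290.4 and 333.6. In MV4-11 the sum of the 8 was 886.9 to 1021.3 with DMSO, 659.9 to 809.1 with SAHA and 487.8 to 689.1 with the combination. TPSAB1, a mast cell tryptase at a mean of 315.7 with DMSO, was the only one of them that passed for a treatment, and it fell in MV4-11 (−1.38 with SAHA, adjusted p = 0.00915). The sums include it, so their fall is not a fall of the eosinophil genes alone. With SAHA in MV4-11, EPX gave −0.38 (adjusted p = 0.859) and PRG2 0.04 (adjusted p = 0.945). The median over the 8 with SAHA in MV4-11 was 0.12, with 2.06 for PRG3 (adjusted p = 0.157), a relative of PRG2 at a mean of 7.3 with DMSO. In MOLM-14 the sum was 625.7 to 681.1 with DMSO and 564.1 to 570.0 with SAHA, and the median difference was −0.16. The part of such cells in the RNASE2 values was not tested.

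SERPINB1 encodes a cytosolic inhibitor of elastase, proteinase 3 and cathepsin G. Its main probe set, 212268_at, gave 2885, 2759 and 2919 with DMSO in MV4-11, 1901, 2360.3 and 2683 with ABT-869, 2792, 2907 and 2718 with SAHA and 1949.6, 2210.5 and 1751 with the combination. The combination arrays were below DMSO and SAHA, and the difference from DMSO was −0.54 (SE 0.150, adjusted p = 0.0570), which passed without ABT-869 replicate 1 (adjusted p = 0.0406). Its other bright probe sets, 213572_s_at and 228726_at, gave −0.05 each in that comparison (adjusted p = 0.857 and 0.882), so the probe sets did not show the same change. In MOLM-14 it gave 2583, 2676 and 2500.5 with DMSO, 2229 to 2446 with ABT-869, 2990.2 to 3122 with SAHA and 2519.5 to 2597 with the combination. The SAHA arrays were above and the ABT-869 arrays below DMSO, with differences of 0.24 (adjusted p = 0.184) and −0.15 (adjusted p = 0.768). The last probe set, 239213_at, was at 11.5 to 110.7, under 32 on 12 arrays, and carries little information.

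SRGN encodes serglycin, the proteoglycan core on which granule proteins are packed. At its main probe set, 201859_at, MV4-11 gave 40562, 38386 and 35176 with DMSO and 39017 to 45750.0 over the treated arrays, and MOLM-14 gave 30303, 36378 and 30106 with DMSO and 26966 to 42176 over the treated arrays. The groups overlapped at this probe set in every comparison with DMSO. No treatment passed, with differences between −0.01 (SAHA in MOLM-14, 95% interval −0.40 to 0.38) and 0.17 (combination in MOLM-14, 95% interval −0.22 to 0.56). The further probe sets, 201858_s_at and 1554676_at, did not pass either, with 1.06 for the dimmer one with the combination in MV4-11 (adjusted p = 0.0688). At 201858_s_at in MV4-11, however, every treated array was above every DMSO array. DMSO gave 29637.3 to 31842.1 there, ABT-869 32266.9 to 37474.9, SAHA 39598.7 to 41685.4 and the combination 35221.4 to 43432.2. In MOLM-14 the groups overlapped at 201858_s_at.

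Over the 9 measured genes, ABT-869 raised 1 (MPO) and lowered 0 in MV4-11, where 0.516% of the 19775 genes rose and 0.779% fell. The members' median was 0.14 against 0.02 for all genes. With limma-trend, which lets the spread depend on the signal, 5 members were called, MPO, PRTN3, LYZ and RNASE2 upward and CTSG downward. The share of all genes called by limma-trend was not worked out, so its counts here and below are no result about the members. In MOLM-14, ABT-869 changed 0 members by limma, against 0.0202% of all genes in either direction, and 0 by limma-trend. At an unadjusted p under 0.05 there were 0 members, and 3970 of all probe sets. SAHA raised 2 (PRTN3 and RNASE2) and lowered 0 in MV4-11, against 2.45% and 1.52% of all genes, with medians of 0.19 and −0.05. In MOLM-14 SAHA raised 1 (CTSG) and lowered 1 (MPO), against 4.2% and 3.62%, with medians of −0.13 and −0.10.

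The combination raised 5 members in MV4-11 (ELANE, PRTN3, CTSG, LYZ and RNASE2) and lowered 1 (MPO), against 7.1% and 5.82% of all genes. The medians were 0.44 for the members and −0.05 for all genes. Without the 5 arrays that stood apart, which leaves 1 combination array in MV4-11 whose spread is taken from the other groups, 2 members were called, MPO and RNASE2. In MOLM-14 it raised 1 (CTSG) and lowered 2 (MPO and PRTN3), against 4.72% and 4.18%, with medians of −0.21 and 0.00. Relative to ABT-869 alone, the combination raised 2 (CTSG and RNASE2) and lowered 1 (MPO) in MV4-11, against 3.14% and 2.9%. In MOLM-14 it raised 1 (CTSG) and lowered 3 (MPO, ELANE and PRTN3), against 6.52% and 5.48%. All comparisons with DMSO in a line share the same 3 DMSO arrays.

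Whether ABT-869 added to SAHA was asked by comparing the combination with SAHA alone. No member was called by limma in either line, against 1.26% of all genes in MV4-11 and 0.0% in MOLM-14. At an unadjusted p under 0.05 there were 4 members in MV4-11 and 2 in MOLM-14, and 7184 and 5272 of all probe sets. The MV4-11 differences of those 4 were 0.51 for CTSG (adjusted p = 0.116), 0.25 for ELANE (adjusted p = 0.336), −0.49 for MPO (adjusted p = 0.234) and −0.52 for SERPINB1 (adjusted p = 0.174), and limma-trend called all 4. In MOLM-14 they were −0.63 for PRTN3 (adjusted p = 0.368) and −0.25 for SERPINB1 (adjusted p = 0.442), with 0 by limma-trend.

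The combination was also set against the sum of the single changes on the log2 scale. In MV4-11 the departure from that sum was −1.55 for MPO (95% interval −2.07 to −1.03, adjusted p = 0.0912), 0.94 for CTSG (0.54 to 1.35, adjusted p = 0.149) and −0.66 for PRTN3 (−1.06 to −0.27, adjusted p = 0.308). MPO rose with ABT-869 and fell with the combination, and CTSG was lower than DMSO on every ABT-869 array and higher on every combination array. None passed, against 0.0455% of all genes, while limma-trend called MPO, CTSG and PRTN3 (adjusted p = 0.000805, 0.00164 and 0.0161). At an unadjusted p under 0.05 there were 5 members, and 4512 of all probe sets. In MOLM-14 0 members passed by limma, against 0.00506% of all genes, and 0 by limma-trend. At an unadjusted p under 0.05 there were 0 members, and 4056 of all probe sets. The MPO departure there was −0.29 (95% interval −1.50 to 0.92).

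**Figure D3:**
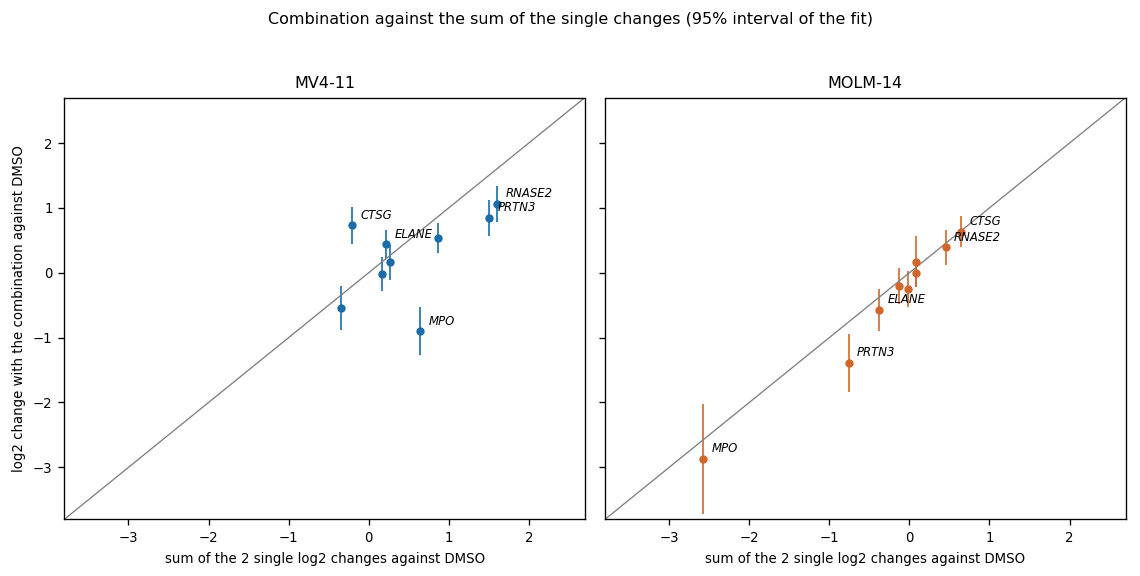
Log2 change with the combination against DMSO (vertical axis) plotted against the sum of the changes with ABT-869 and with SAHA (horizontal axis) for the 9 measured genes, in MV4-11 on the left and MOLM-14 on the right. Bars are 95% intervals of the combination and the grey line marks equality. In MV4-11, MPO lies 1.55 below and CTSG 0.94 above the line, and neither departure passed the test.

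The lines were compared directly in 1 fit over the 24 arrays. With DMSO, RNASE2 was higher in MOLM-14 by 0.49 (SE 0.110, adjusted p = 0.00751) and AZU1 lower (−0.39, SE 0.107, adjusted p = 0.0272), so 1 member was higher and 1 lower against 8.19% and 6.51% of all genes. The AZU1 call was lost without MV4-11 DMSO replicate 1 or 2 or MOLM-14 DMSO replicate 3 (adjusted p 0.0810 to 0.133), without the 5 arrays that stood apart (−0.28, adjusted p = 0.104), and with centred arrays (−0.13, adjusted p = 0.709). MPO and PRTN3 were at 0.73 (adjusted p = 0.144) and 0.41 (adjusted p = 0.128), and centring gave 0.99 (adjusted p = 0.0368) and 0.67 (adjusted p = 0.0304). PRTN3 also passed without MOLM-14 DMSO replicate 3 (0.60, adjusted p = 0.0210).

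The responses to SAHA and to the combination differed between the lines for 5 members each, always lower in MOLM-14, and the 5 were the same, MPO, ELANE, PRTN3, LYZ and RNASE2. For SAHA, PRTN3 differed by −1.79 (SE 0.227, adjusted p = 0.000687) and MPO by −2.32 (SE 0.418, adjusted p = 0.00986). Both were called whichever array was left out. ELANE (−0.68, adjusted p = 0.0467), LYZ (−0.60, adjusted p = 0.0437) and RNASE2 (−0.66, adjusted p = 0.0479) were close to the threshold. ELANE was kept only without MV4-11 combination replicate 3 or, of MOLM-14, the third ABT-869 or DMSO array or the first SAHA array, and the other 20 arrays each ended the call (adjusted p 0.0520 to 0.13). LYZ was lost without each of 18 arrays (adjusted p 0.050 to 0.123), all but MV4-11 ABT-869 replicates 1 and 2 and combination replicate 3 and MOLM-14 ABT-869 replicates 1 and 3 and combination replicate 2. RNASE2 was lost without each of 20 (adjusted p 0.0505 to 0.13), all but ABT-869 replicates 1 and 2 of MV4-11 and 1 and 3 of MOLM-14. Without the 5 arrays that stood apart, LYZ (−0.63, adjusted p = 0.0911) and RNASE2 (−0.67, adjusted p = 0.0710) were lost. With centred arrays 2 of the 5 were called, MPO and PRTN3. The share of all genes with a lower SAHA response in MOLM-14 was 1.04%, and 1.02% had a higher one.

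For the combination the differences were −2.24 for PRTN3 (SE 0.227, adjusted p = 1.95e-05), −1.97 for MPO (SE 0.418, adjusted p = 0.00712), −1.01 for ELANE (SE 0.160, adjusted p = 0.000810), −0.74 for LYZ (SE 0.141, adjusted p = 0.00328) and −0.67 for RNASE2 (SE 0.156, adjusted p = 0.0125). All 5 were called whichever array was left out, and all but RNASE2 (−0.61, adjusted p = 0.121) without the 5 arrays that stood apart. At the further probe set of MPO the difference was −1.15 and did not pass (adjusted p = 0.0791). Lower responses in MOLM-14 made up 5.63% of all genes and higher ones 4.88%, and the members' median was −0.67 against 0.04. SERPINB1 was at 0.53 (adjusted p = 0.0564), and passed without MV4-11 ABT-869 replicate 1 or 3 or combination replicate 2 (adjusted p 0.0239 to 0.0363). CTSG had −0.10 (95% interval −0.40 to 0.21, adjusted p = 0.816). The ABT-869 response differed for 0 members by limma, against 0.546% of all genes, and for 1 (CTSG) by limma-trend. At an unadjusted p under 0.05 there were 5 members, and 5585 of all probe sets. In the ABT-869 response CTSG had 0.61 (adjusted p = 0.0970) and MPO −0.90 (adjusted p = 0.476).

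**Figure D4:**
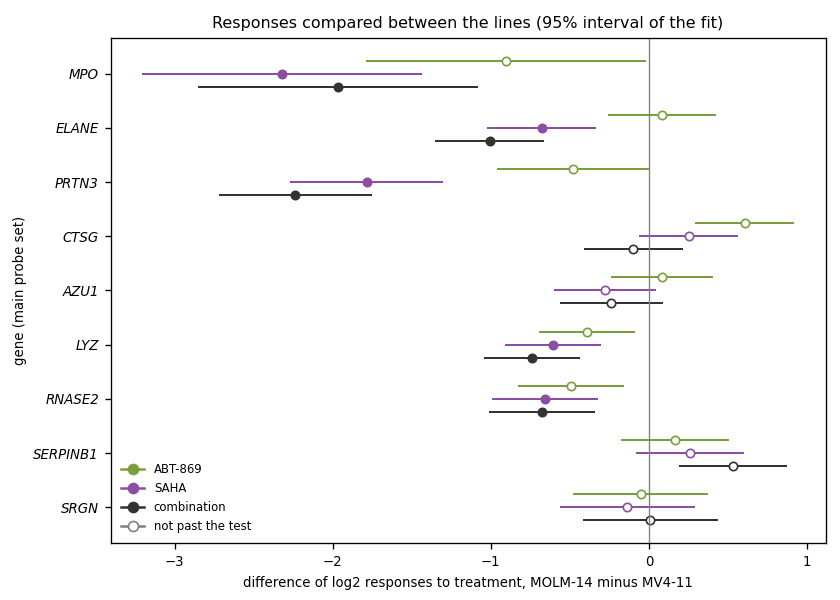
Difference of the log2 responses between the lines (MOLM-14 minus MV4-11, horizontal axis) for each gene with ABT-869, SAHA and the combination. Lines are 95% intervals from limma over 24 arrays and filled points have an adjusted p under 0.05. PRTN3 (−2.24) and MPO (−1.97) had the largest differences with the combination, and AZU1, CTSG, SERPINB1 and SRGN passed with no treatment.

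All 15 genes of the list of specific and gelatinase granules were measured, and with DMSO 7 of them in MV4-11 and 9 in MOLM-14 had a median under 32. SAHA raised 2 in MV4-11 and 3 in MOLM-14, where 2.45% and 4.2% of all genes rose, and lowered 0. CHI3L1, a chitinase-like protein of specific granules that macrophages also make, rose by 2.18 in MV4-11 (adjusted p = 7.57e-05) and 1.15 in MOLM-14 (adjusted p = 0.00381). TCN1, a cobalamin carrier, rose by 3.73 (adjusted p = 0.0252) and 2.50 (adjusted p = 0.0465) from DMSO means of 21.3 and 52.1. The combination raised CHI3L1 by 1.59 and 0.72 (adjusted p = 0.000158 and 0.00796). MMP8, a collagenase, passed in MOLM-14 with SAHA and the combination but stayed at or under 93.0, in the dim part of the scale. ABT-869 changed 0 of the 15 in either line by limma.

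Genes that activate, inhibit or sort the proteases were measured for 11 of 15, since SERPINB2, SERPINB6, BPI and PRSS57 were not matched. SAHA raised 2 in MV4-11, SERPINB10, an intracellular serpin (1.85, adjusted p = 0.00363), and SLPI, the secreted inhibitor of elastase (0.87, adjusted p = 0.0468), and 1 in MOLM-14, CD63, a membrane protein of primary granules and lysosomes (0.65, adjusted p = 0.0139), against 2.45% and 4.2% of all genes. With the combination SERPINB10 (1.45, adjusted p = 0.00341) and SERPINB8 (0.69, adjusted p = 0.0357) rose in MV4-11, and CD63 (0.81, adjusted p = 0.00563) in MOLM-14, against 7.1% and 4.72% of all genes. With no treatment did any of the 11 fall. Between the lines, the CD63 response was higher in MOLM-14 for SAHA (0.62, adjusted p = 0.0228) and for the combination (0.68, adjusted p = 0.00275), and the SERPINB8 response to the combination was lower (−0.69, adjusted p = 0.0334).

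Of 10 transcription factors known to act on these genes 9 were measured, RUNX1 not being matched. CEBPB, a C/EBP factor of macrophages and stressed granulocyte precursors, fell in MV4-11 with ABT-869 (−1.61, adjusted p = 0.00107), SAHA (−1.48, adjusted p = 0.000511) and the combination (−1.23, adjusted p = 0.000381). IRF8, a factor of monocyte development, fell in MOLM-14 with SAHA (−0.78, adjusted p = 0.00840) and the combination (−0.78, adjusted p = 0.00601). No other factor on the list passed for a treatment against DMSO. With DMSO, CEBPB (−1.68, adjusted p = 7.20e-08), SPI1, which encodes PU.1 (−0.94, adjusted p = 0.00782), and GFI1 (−0.39, adjusted p = 0.0208) were lower in MOLM-14 and CBFB (0.43, adjusted p = 0.00348) was higher. Of the 8 myeloid and monocytic markers, SAHA changed 1 in each line, ITGAM, the CD11b chain, which rose by 0.84 in MV4-11 (adjusted p = 0.00890) and 1.0 in MOLM-14 (adjusted p = 0.00835), where 2.45% and 4.2% of all genes rose. The other 7 did not pass, with −0.61 for CD14 (adjusted p = 0.480) and −0.73 for FCGR1A (adjusted p = 0.326) with SAHA in MV4-11. Their DMSO means there were only 7.9 and 58.2.

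Across the 24 arrays, the genes whose log2 signal followed that of MPO most closely, of 11954 genes above the median signal, were MCM4 (Pearson r = 0.959), IRF8 (0.957), MCM2 (0.954), RNASEH2A (0.954) and POLE (0.954). Apart from IRF8, these encode parts of the DNA replication machinery. The closest genes were picked for the highest r, so the lower values of the members are no result about them. Among the members, r with MPO was 0.604 for ELANE, 0.601 for PRTN3, 0.477 for AZU1 and 0.449 for LYZ. SRGN was at 0.146, SERPINB1 at −0.263, RNASE2 at −0.545 and CTSG at −0.757. These are descriptions over arrays that share 8 groups, 2 lines and their treatments.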

How the data were processed

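Each of 24 cultures gave 1 Affymetrix U133 Plus 2.0 array. The authors deposited linear intensity values, 1 signal per probe set. The software behind them is not stated in the sources used here. The 62 control probe sets were left out, signals under 1 (0.209%) were raised to 1, and log2 was taken without further normalization. With limma 3.58.1 in R 4.3.3, 1 model was fitted to the 12 arrays of each line, and 1 to all 24 arrays for differences between lines, after a test on simulated data. P-values were adjusted over 54613 probe sets. The number of arrays limits the precision. The members, the gene lists and the rule for named genes (all members, the list genes past the test, and the 5 genes closest to MPO) were chosen with earlier results of these data known. The annotation gave 41091 probe sets 1 gene, 1801 several and 11721 none, and updated symbols were used. Alternatives were quantile normalization, centred arrays, a floor of 32, no dim probe sets, limma-trend, a replicate block, other sample sets, the second probe set of a gene and a 2-fold rule.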

Additional observations from a re-analysis of the deposited data

Results flagged for a closer look

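The 10 differences of response between the lines that passed the test are given here together (MOLM-14 minus MV4-11, log2 scale, limma over 24 arrays). For SAHA they were −2.32 for MPO, −1.79 for PRTN3, −0.68 for ELANE, −0.66 for RNASE2 and −0.60 for LYZ. For the combination they were −2.24 for PRTN3, −1.97 for MPO, −1.01 for ELANE, −0.74 for LYZ and −0.67 for RNASE2. MPO and PRTN3 fell with the combination in MOLM-14, while PRTN3 rose and MPO fell in MV4-11. RNASE2 was above DMSO on every array of both treatments in both lines. Its rises were called in MV4-11, while the smaller ones in MOLM-14 did not pass.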

How the results depend on the processing

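No difference reported for a gene changed sign where it was called. The numbers of members called moved as follows, named by comparison with DMSO unless stated. The share of all genes called was not worked out under any alternative or with an array left out. The counts in this section thus show only how the calls depend on the settings, and a larger count is no result about the members. Quantile normalization gave 5 for SAHA and 5 for the combination in MOLM-14 and 1 for the lines with DMSO. Centred arrays gave 0 for ABT-869 in MV4-11, 4 for SAHA in MOLM-14 and 2 for the SAHA response between lines. A floor of 32 gave, in MV4-11, 5 for ABT-869, 4 for SAHA, 5 for the combination against ABT-869, 2 for the combination against SAHA and 2 for the departure from the sum, and in MOLM-14 6 for SAHA, 5 for the combination, 7 against ABT-869 and 1 against SAHA, with 1 for the ABT-869 response. Leaving out dim probe sets, which tests fewer, gave 5 for ABT-869, 5 against ABT-869, 2 against SAHA and 2 for the departure in MV4-11, 6 for SAHA and 5 for the combination in MOLM-14 and 1 for the ABT-869 response. Limma-trend gave 5 for ABT-869, 5 against ABT-869, 4 against SAHA and 3 for the departure in MV4-11, 6 for SAHA, 5 for the combination and 7 against ABT-869 in MOLM-14, and 1 for the ABT-869 response. A fit of only the groups compared, with 6 arrays, gave 0 for ABT-869, 0 for SAHA, 1 for the combination and 0 against ABT-869 in MV4-11, and 0, 0 and 2 for SAHA, the combination and the combination against ABT-869 in MOLM-14. A single fit over 24 arrays gave 3 for ABT-869, 2 against SAHA and 1 for the departure in MV4-11, and 5 for SAHA and 5 for the combination in MOLM-14. MPO was not among the 3 for ABT-869. Without the 5 arrays that stood apart the counts were 0 for ABT-869, 2 for the combination and 1 against ABT-869 in MV4-11, and 3 for the SAHA response. The second probe set gave 0 for ABT-869 in MV4-11, and the 2-fold rule 1 for the combination in MV4-11 and 1 for SAHA in MOLM-14. The causes were not tested.

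With the replicate number as a block, the counts were 0 for ABT-869 in MV4-11, 2 for the SAHA response and 1 for the lines with DMSO, and the other counts stayed within 1.5 times. Deviations of same-numbered arrays correlated at −0.19 to 0.184 in MV4-11 and −0.063 to 0.328 in MOLM-14, and no label says that a number marks a shared culture or day, so the arrays share only a number.

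Leaving out each array in turn gave 0 to 1 members for ABT-869, 2 for SAHA, 4 to 7 for the combination and 2 to 3 against ABT-869 in MV4-11. In MOLM-14 it gave 1 to 3 for SAHA, 3 to 4 for the combination and 2 to 4 against ABT-869. Between lines it gave 2 to 5 for the SAHA response, 5 to 6 for the combination response and 1 to 2 with DMSO, and 0 for the other comparisons. Signals under 32 made up 30.269% of all values, but only 1 member probe set reached so low.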
